A study of Mus musculus with 12 samples.

Results

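The genes described here form the antioxidant and detoxification system that is usually grouped around the transcription factor NRF2: the glutathione enzymes, the peroxiredoxin and thioredoxin enzymes, and the enzymes that oxidise or reduce aldehydes. They were taken from the count table by a rule on gene symbols, which was chosen with earlier results of these data known. It takes glutathione S-transferases (Gsta, Gstk, Gstm, Gsto, Gstp and Gstt symbols), glutathione peroxidases, peroxiredoxins and every symbol that begins with Txn. It also takes aldehyde dehydrogenases (Aldh), aldo-keto reductases (Akr1), both superoxide dismutases and 11 single genes. The rule found 76 of the 12208 genes listed. Of these, 74 were among the 12027 genes with enough counts to test. Gstp3 and Prdx6b were not, with means between 0.132 and 0.295 CPM in every line. CPM, counts per 1000000 counts of a TMM-normalised library, is the unit of every level given.

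RNA came from 4 lines of 393P, a mouse lung cancer line labelled epithelial and non-metastatic, none of them treated, with 3 libraries a line. The lines carry Zeb1_mimetic, Zeb1_deficient, Zeb1 WT or, as the control, a GFP vector, and the study asks how acetylation of Zeb1, a zinc-finger repressor that drives the epithelial-mesenchymal transition, alters its action. "Deficient" and "mimetic" are therefore read as forms of the protein that lack or imitate acetylation and not as loss of Zeb1. The QuantSeq 3' kit reads 1 tag near the end of each transcript, so a level counts transcripts whatever their length. Each form is a single line. Its form of Zeb1 thus cannot be told apart from any other difference between the lines, and the p-values measure the spread between libraries that the labels call biological replicates, while the series design text speaks of 2 replicates.

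NRF2, encoded by Nfe2l2, is held in the cytoplasm and sent to degradation by KEAP1 until oxidants or electrophiles modify KEAP1. It then enters the nucleus and binds antioxidant response elements in the promoters of genes that make glutathione, reduce peroxides, supply NADPH and conjugate or reduce reactive aldehydes. Lung tumours often carry mutations of the KEAP1-NRF2 pair, and several of these enzymes, the aldehyde dehydrogenases among them, are also used as markers of tumour cell states.

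Promoter sequences of 4 genes are shown because their levels moved in different ways and each holds letters of a kind that NRF2 or ZEB1 binds. Each runs from 250 bases before to 50 bases after the annotated start, 5′ to 3′ on the gene's own strand, and comes from RefSeq (GRCm38.p6). In the first 3, which belong to a glutathione synthesis, a peroxiredoxin and an NADPH gene, the capitals mark the antioxidant response element core TGACNNNGC, which stands on the opposite strand in all 3, so that the capitals are its reverse complement. In the last, Aldh5a1, the capitals mark CAGGTG, the opposite-strand form of the ZEB1-type E-box CACCTG.
Gclm, chr3:122245307-122245606, plus strand: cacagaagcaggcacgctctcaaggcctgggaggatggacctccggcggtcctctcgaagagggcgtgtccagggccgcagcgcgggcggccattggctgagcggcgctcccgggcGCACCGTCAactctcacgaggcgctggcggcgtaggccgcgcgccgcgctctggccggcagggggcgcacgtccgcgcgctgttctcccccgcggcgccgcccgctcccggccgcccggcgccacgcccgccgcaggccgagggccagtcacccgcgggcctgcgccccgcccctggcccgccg
Prdx1, chr4:116685349-116685648, plus strand: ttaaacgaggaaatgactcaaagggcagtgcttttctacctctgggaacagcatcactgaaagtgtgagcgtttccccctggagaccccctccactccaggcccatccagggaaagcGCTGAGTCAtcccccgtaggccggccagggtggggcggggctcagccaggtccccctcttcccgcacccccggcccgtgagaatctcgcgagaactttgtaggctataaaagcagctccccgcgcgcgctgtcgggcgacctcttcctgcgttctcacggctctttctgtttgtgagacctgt
G6pdx, chrX:74428831-74429130, minus strand: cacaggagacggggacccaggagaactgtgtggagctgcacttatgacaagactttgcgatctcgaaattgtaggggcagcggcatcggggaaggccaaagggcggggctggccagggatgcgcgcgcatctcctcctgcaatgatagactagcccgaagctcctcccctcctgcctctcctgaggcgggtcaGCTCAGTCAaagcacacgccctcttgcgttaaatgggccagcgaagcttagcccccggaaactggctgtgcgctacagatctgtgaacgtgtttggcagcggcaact
Aldh5a1, chr13:24937612-24937911, minus strand: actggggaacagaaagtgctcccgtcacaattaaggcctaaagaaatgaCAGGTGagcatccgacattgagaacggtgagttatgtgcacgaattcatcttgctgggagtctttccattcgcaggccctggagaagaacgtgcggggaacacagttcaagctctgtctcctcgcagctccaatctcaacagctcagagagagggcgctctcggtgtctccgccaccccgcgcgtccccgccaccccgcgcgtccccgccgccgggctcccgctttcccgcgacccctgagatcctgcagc

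The 12 libraries held 24.4 to 39 M counts, and the counts of replicates differed by more than sampling noise in every line. Zeb1 RNA stood at 214.2 to 236.3 CPM in mimetic, 470.0 to 496.0 in deficient and 236.4 to 250 in WT, against 29.3 to 34.4 in vector. Of the 6 epithelial markers 4 were listed (Cdh1, Krt8, Krt18 and Cldn3). They summed to 4225 to 4398 CPM in mimetic, 5731 to 5857 in deficient and 3560 to 3700 in WT, against 6761.5 to 7783 in vector. Markers of other cell types were low. The 1 of 4 leukocyte markers that was listed, Cd68, lay at 2.12 to 8.43 CPM over all libraries, the 2 of 4 fibroblast markers summed to 0.792 to 2.66 CPM, and none (0) of the 3 alveolar or airway markers was listed. The 2 of 3 endothelial markers moved with the lines: they summed to 2.61 to 3.11 CPM in mimetic, 5.37 to 7.15 in deficient and 0.736 to 1.14 in WT, against 0.29 to 1.01 in vector, most of it from Kdr. The epithelial sum is carried by Krt8 and Krt18 and was lower in each Zeb1 line than in vector, as were many genes described below. Cldn3 went the other way, with 26.3 CPM in mimetic and 44.1 in deficient against 16.8 in vector, and stood at 12.3 in WT. The part of these markers in the results was not tested. In RNA of whole cultures, fewer cells of a type and less RNA per cell cannot be told apart.

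Most of these genes varied over the 4 lines, but so did most genes of the table. With edgeR's quasi-likelihood test and Benjamini-Hochberg adjustment over all 12027 genes, the source of every adjusted p given here, 62 of the 74 tested genes (83.8%) differed somewhere among the 4 lines at an adjusted p under 0.05, where 80.9% of all tested genes did. The 12 that did not pass were Nfe2l2 and Keap1 themselves, Sod2, Txnrd2, Txndc2, Txnl1, Txnl4a, Txnl4b, Gstm4, Aldh4a1, Akr1b8 and Akr1e1. As a share of all counts, the 76 genes together took 0.855% ± 0.00695 in mimetic, 0.807% ± 0.0194 in deficient and 0.877% ± 0.00248 in WT, against 0.793% ± 0.0304 in vector (SD, n = 3 each).

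Against the vector line, genes of the group went both ways in each form of Zeb1, at shares close to those of all genes. Peroxidases and Hmox1 were among those that rose, and Gsr, Gsta4 and most aldehyde dehydrogenases among those that fell. The mimetic line had 28 of the 74 genes called higher and 20 lower (37.8% and 27.0%), where 28.6% and 30.9% of all tested genes were. The deficient line had 23 higher and 25 lower (31.1% and 33.8%, against 28.4% and 29.8% of all tested genes). The WT line had 27 higher and 24 lower (36.5% and 32.4%, against 31.0% and 33.6% of all tested genes). Genes called with a change of at least 1.5-fold numbered 16 in mimetic, 20 in deficient and 21 in WT, which is 21.6%, 27.0% and 28.4% of the tested members, against 19.3%, 17.6% and 23.6% of all tested genes. The median log2 fold change of the members was 0.07, -0.01 and 0.09 in that order, and that of all tested genes lay between -0.01 and 0.0. The 3 comparisons share the vector libraries and are not independent of each other. Counts by family are to be read against the same shares of all tested genes.

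**Figure D1:**
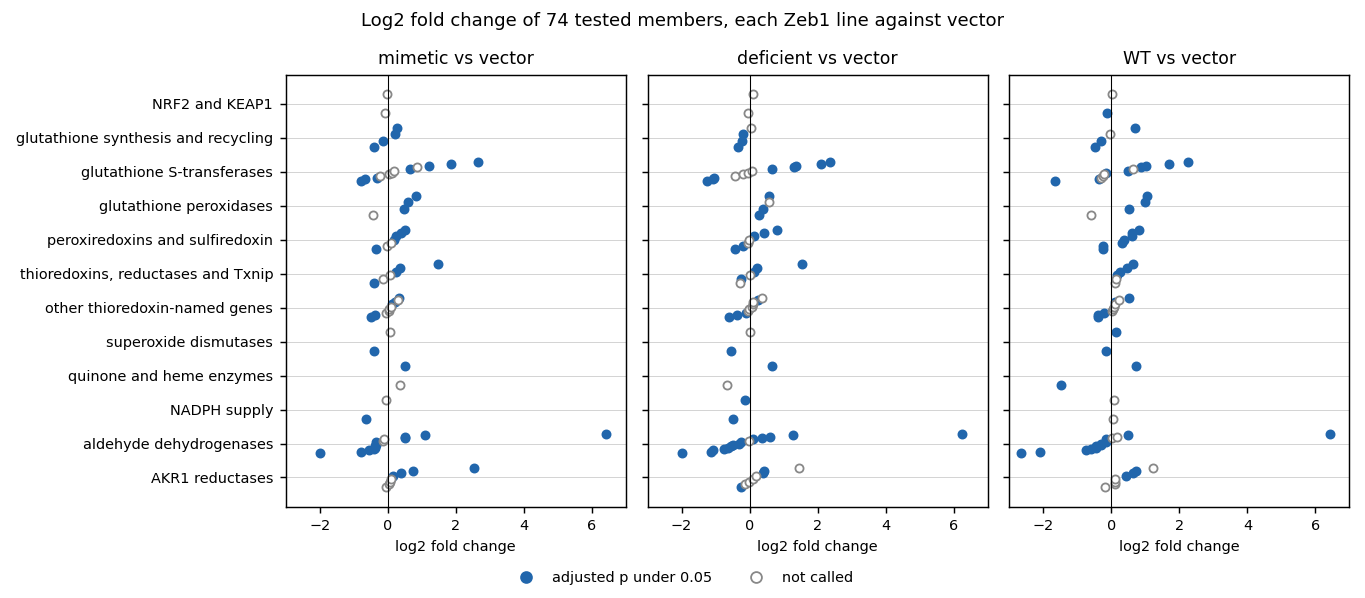
Log2 fold changes of the 74 tested genes in the mimetic, deficient and WT lines, each against the vector line, 1 row per family and 1 point per gene. Filled points passed an adjusted p under 0.05 in edgeR's quasi-likelihood test and open points did not. Glutathione peroxidases lie mostly to the right of 0, aldehyde dehydrogenases mostly to the left, and Aldh5a1 stands alone at 6.26 to 6.43.

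The regulator pair was nearly flat. Nfe2l2 (chromosome 2, 75675513 to 75704641, GRCm38), the gene of NRF2, had 178.7, 189.4 and 177.1 CPM in the mimetic libraries, 184.4, 182.6 and 183.2 in deficient, 168.6, 190.0 and 169.7 in WT, and 192.3, 194.3 and 188.5 in vector. Its largest difference was a log2 fold change of -0.12 in WT against vector (SE 0.05, adjusted p = 0.0268), a call that was lost without WT replicate 1 or 3 or vector replicate 1 or 2 (adjusted p up to 0.169). Keap1, which encodes the adaptor that targets NRF2 for degradation, averaged 53.4 ± 1.61 CPM in mimetic, 58.8 ± 2.45 in deficient, 54.9 ± 4.59 in WT and 54.5 ± 1.38 in vector (SD, n = 3 each). None of its changes against vector or between the forms passed the test. These are RNA levels, and NRF2 is controlled mainly through the protein.

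The steps of glutathione synthesis did not move together. Gclc (chromosome 9, 77754535 to 77794485), which encodes the catalytic subunit of glutamate-cysteine ligase, the rate-limiting enzyme of the pathway, had 153.5, 152.5 and 150.6 CPM in mimetic, 111.8, 114.6 and 101.6 in deficient, 201.7, 210.8 and 201.6 in WT, and 123.7, 129.8 and 123.8 in vector. The libraries of the 4 lines did not overlap: WT was highest, then mimetic, then vector, and deficient was lowest. Gclc was thus 1.63-fold higher in WT than in vector (log2 fold change 0.70, SE 0.05, adjusted p = 3.57e-11) and 1.21-fold higher in mimetic (0.28, SE 0.05, adjusted p = 3.22e-05), but 1.15-fold lower in deficient (-0.20, SE 0.05, adjusted p = 0.000884).

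Gclm, the modifier subunit of the same ligase, whose promoter is the first shown above, followed another order. It had 92.2, 95.3 and 85.9 CPM in mimetic, 80.4, 78.6 and 81.8 in deficient, 74.1, 76.7 and 77.4 in WT, and 76.4, 80.8 and 77.1 in vector. The mimetic libraries lay above those of every other line (1.17-fold against vector, adjusted p = 0.000594), and neither deficient (log2 fold change 0.04) nor WT (-0.04) passed the test. Exons of Gclm overlap Gm6061 on the same strand and Gm17494 on the opposite strand. Gss, glutathione synthetase, averaged 45.8 ± 2.02 CPM in mimetic, 43.8 ± 1.88 in deficient and 40.8 ± 1.42 in WT, against 51.0 ± 1.11 in vector, with falls of 1.11, 1.16 and 1.25-fold (adjusted p = 0.028, 0.00296 and 6.12e-05). The mimetic call was lost without mimetic replicate 1 or 3 or vector replicate 2 (adjusted p up to 0.0946). Gsr, the reductase that regenerates glutathione from its oxidised form, fell further, to 218.1 ± 7.07 CPM in mimetic, 226.9 ± 5.54 in deficient and 205.2 ± 2.01 in WT, against 288.7 ± 5.63 in vector (1.32, 1.27 and 1.41-fold, adjusted p = 2.17e-08, 2.1e-07 and 8.53e-10).

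The glutathione peroxidases, which spend glutathione to reduce peroxides, mostly rose: 3 of 4 members were called higher in each Zeb1 line against vector, and the 4th, Gpx3, stayed between 0.283 and 1.25 CPM in every library. Of all tested genes, 28.6% were called higher in mimetic, 28.4% in deficient and 31.0% in WT. Gpx1 (chromosome 9, 108338903 to 108340343), the main cytosolic enzyme, had 403.9, 406.9 and 413.0 CPM in mimetic, 342.0, 347.8 and 348.3 in deficient, 480.0, 475.0 and 476.5 in WT, and 221.4, 222.5 and 251.0 in vector. All libraries of the Zeb1 lines lay above all vector libraries, and the rise was 1.76-fold in mimetic, 1.49-fold in deficient and 2.06-fold in WT (adjusted p = 2.4e-12, 6.64e-10 and 2.95e-14). Gpx8, an enzyme of the endoplasmic reticulum membrane, had 67.6, 73.2 and 70.8 CPM in mimetic, 59.7, 61.4 and 49.2 in deficient, 94.1, 90.6 and 91.9 in WT, and 48.0, 45.8 and 46.8 in vector. It rose 1.5-fold, 1.21-fold and 1.97-fold in that order (adjusted p = 1.95e-07, 0.00135 and 6.24e-11). Gpx4, which reduces lipid hydroperoxides in membranes and guards cells against ferroptosis, averaged 585.5 ± 2.02 CPM in mimetic, 542.4 ± 19.8 in deficient and 596.7 ± 2.15 in WT, against 416.6 ± 15.2 in vector (1.41, 1.30 and 1.43-fold higher). Of the sequences of 50 bases in the last 300 bases of Gpx4 transcripts, 83.4% occur in another gene as well, so its count is uncertain. The family as a whole took 0.109% ± 0.000516 of all counts in mimetic, 0.0953% ± 0.00278 in deficient and 0.115% ± 0.000331 in WT, against 0.0679% ± 0.00275 in vector.

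Peroxiredoxins, which reduce peroxides with thioredoxin in place of glutathione, split by member. Prdx5, found in mitochondria and peroxisomes, rose in each line, with 191.0, 189.7 and 192.8 CPM in mimetic, 227.9, 242.3 and 228.1 in deficient and 231.8, 228.9 and 240.8 in WT, against 127.7, 126.7 and 145.5 in vector (1.43, 1.75 and 1.75-fold, adjusted p = 1.67e-08, 2.38e-11 and 1.16e-11). Its exons overlap those of Trmt112 on the opposite strand. The cytosolic Prdx2, which overlaps Junb and Rnaseh2a on the opposite strand, rose 1.30, 1.33 and 1.51-fold, to 469.5 ± 10.1 CPM in mimetic, 480.7 ± 9.93 in deficient and 547.1 ± 8.80 in WT, against 361.3 ± 12.8 in vector. Prdx1, the other main cytosolic member, went the opposite way, and its promoter is the second shown above. It fell to 507.3 ± 24.7 CPM in mimetic, 478.8 ± 45.7 in deficient and 544.1 ± 16.4 in WT, against 649.9 ± 44.5 in vector (1.28, 1.36 and 1.19-fold, adjusted p = 3.09e-05, 2.5e-06 and 0.000816), and 31.8% of its 3' end sequences of 50 bases occur in another gene.

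Prdx4 (chromosome X, 155323918 to 155340754), the secreted and endoplasmic reticulum member, followed the order of Gclc. It had 54.6, 56.9 and 54.9 CPM in mimetic, 43.9, 44.4 and 39 in deficient, 70.9, 75.8 and 73.0 in WT, and 45.8, 48.3 and 51.4 in vector, and no 2 lines overlapped. It rose 1.51-fold in WT (adjusted p = 3.37e-08) and 1.14-fold in mimetic (adjusted p = 0.0105), and fell 1.14-fold in deficient (adjusted p = 0.011). The mimetic call was lost without vector replicate 1 (adjusted p = 0.0633), and the deficient call without deficient replicate 3 or vector replicate 3 (adjusted p up to 0.067). Srxn1, sulfiredoxin, which repairs overoxidised peroxiredoxins, rose 1.18-fold in mimetic and 1.30-fold in WT, to 91.1 ± 5.03 and 100.2 ± 1.24 CPM, against 77.3 ± 2.86 in vector. In deficient it stood at 84.0 ± 2.39 CPM (adjusted p = 0.0417), a call lost without any 1 of the deficient or WT libraries, mimetic replicate 2 or vector replicate 1 or 2 (adjusted p up to 0.174). Mitochondrial Prdx3 rose in WT (128.4 ± 2.58 CPM against 102.6 ± 4.48 in vector, 1.25-fold) and Prdx6 fell in WT (144.7 ± 6.01 CPM against 173.4 ± 6.79 in vector, 1.20-fold), while both missed the test in mimetic and deficient.

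In the thioredoxin system, the electron donor and its inhibitor differed by line. Txn1, the cytosolic thioredoxin, had 358.0, 340.4 and 335.1 CPM in mimetic, 332.9, 330.6 and 294.7 in deficient, 449.7, 442.8 and 461.1 in WT, and 285.0, 272.8 and 317.2 in vector. The WT libraries lay above all others (1.55-fold against vector, adjusted p = 2.58e-09), mimetic lay above vector by 1.18-fold (adjusted p = 0.000695), and deficient overlapped vector, with a call at an adjusted p of 0.0429 that was lost without deficient replicate 1 or 2, mimetic replicate 2, any 1 WT library or vector replicate 1 or 2 (up to 0.211). Txnip (chromosome 3, 96557957 to 96561883), which binds and inhibits thioredoxin and restrains glucose uptake, had 47.3, 47.5 and 49.4 CPM in mimetic, 50, 51.8 and 48.4 in deficient, 18.6, 18.8 and 20.6 in WT, and 16.7, 18.3 and 16.6 in vector. The 2 mutant lines thus stood 2.79-fold (mimetic, adjusted p = 1.34e-13) and 2.91-fold (deficient, adjusted p = 8.98e-14) above vector. WT was within 1.12-fold of vector, at an adjusted p of 0.0406 that was lost without WT replicate 3 or vector replicate 1 or 3 (up to 0.169). Exons of Txnip overlap Gm15441 on the opposite strand, and the counting strand is not given in the sources used here.

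Txnrd1, the reductase that recharges Txn1, rose in WT (378.2 ± 3.27 CPM against 321.2 ± 3.16 in vector, 1.18-fold, adjusted p = 6.89e-06) and missed the test in mimetic (335.9 ± 5.03) and deficient (325.8 ± 2.09). The mitochondrial thioredoxin Txn2 rose 1.28-fold in mimetic and 1.37-fold in WT, and 1.16-fold in deficient, where its libraries overlapped those of vector. Of the other 10 genes with a Txn symbol, which share a thioredoxin-like fold but serve in protein folding, splicing and other processes, 3 were called higher and 2 lower in mimetic, 1 and 3 in deficient, and 2 and 3 in WT. Over all tested genes the shares were 28.6% and 30.9%, 28.4% and 29.8%, and 31.0% and 33.6%. Txndc12 of the endoplasmic reticulum led them, at 73.1 ± 2.07 CPM in mimetic, 70.0 ± 1.83 in deficient and 83.5 ± 1.84 in WT, against 58.4 ± 0.821 in vector (1.25, 1.20 and 1.43-fold higher). Txndc15 fell, to 38.3 ± 0.257, 35.1 ± 3.63 and 40.6 ± 1.65 CPM in the same order, against 54.0 ± 4.52 in vector (1.41, 1.54 and 1.33-fold).

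**Figure D2:**
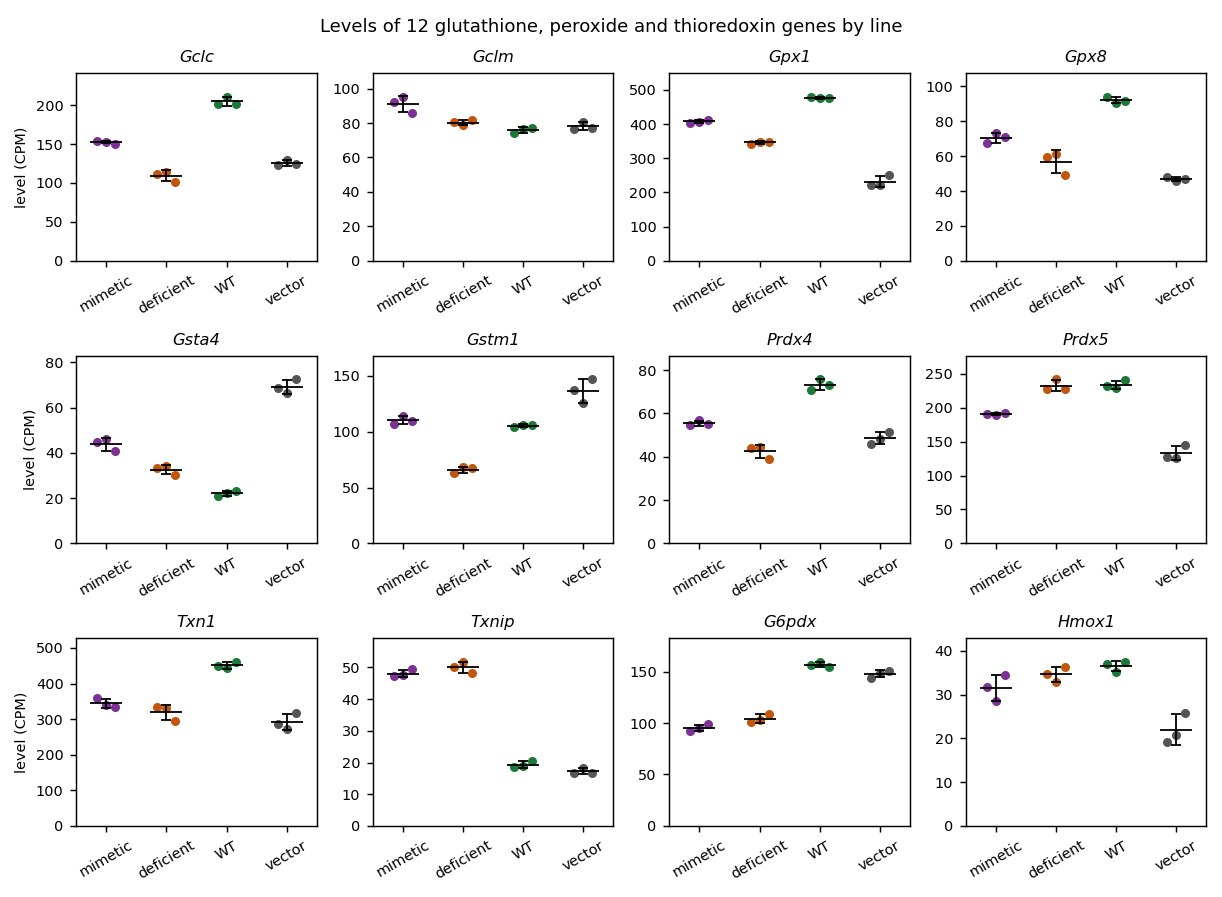
Levels in CPM (vertical axes, from 0) of 12 glutathione, peroxide and thioredoxin genes in the mimetic, deficient, WT and vector lines. Points are the 3 libraries of a line, the long bar is their mean and the short bars are the SD. Gclc, Prdx4, Txn1 and Gpx8 are highest in WT, Txnip lies at 47.3 to 51.8 CPM in both mutant lines and at 16.6 to 20.6 CPM in WT and vector, and G6pdx is low in both mutant lines.

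The superoxide dismutases, which turn superoxide into hydrogen peroxide, differed by compartment. Cytosolic Sod1 fell to 219.2 ± 2.21 CPM in mimetic, 200.7 ± 13.0 in deficient and 259.3 ± 4.34 in WT, against 291.0 ± 23.4 in vector (1.33, 1.45 and 1.12-fold, adjusted p = 1.22e-06, 3.12e-08 and 0.00891). The WT call was lost without vector replicate 3 (adjusted p = 0.0772), and 18.3% of the 3' end sequences of Sod1 occur in another gene. Mitochondrial Sod2 stayed between 70.3 and 83.1 CPM in all libraries and passed the test only in WT against vector (1.09-fold, adjusted p = 0.0276) and in deficient against WT (1.09-fold lower, adjusted p = 0.0336). The first call was lost without WT replicate 3 or vector replicate 1 or 2 (adjusted p up to 0.148), and the second without deficient replicate 1 or 2 or WT replicate 3 (up to 0.131).

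Of the 2 classic NRF2 reporter genes, Hmox1 rose in each Zeb1 line. Nqo1, with few counts, was called against vector only in WT, where it fell. Hmox1 (chromosome 8, 75093621 to 75100589), heme oxygenase, had 31.8, 28.5 and 34.4 CPM in mimetic, 34.6, 32.9 and 36.3 in deficient and 37.0, 35.2 and 37.5 in WT, against 19.1, 20.8 and 25.9 in vector. No library of a Zeb1 line reached down to the vector range, and the rise was 1.44, 1.58 and 1.66-fold (adjusted p = 6.99e-05, 4.45e-06 and 7.42e-07). Nqo1, the quinone reductase often used to read NRF2 activity, was close to the detection limit in all lines, with 26, 22 and 21 counts in the mimetic libraries, 11, 23 and 7 in deficient, 7, 10 and 5 in WT, and 20, 17 and 33 in vector. At that depth the pooled ratio to vector was 1.27 in mimetic (exact 95% interval 0.9 to 1.8), 0.628 in deficient (0.416 to 0.936) and 0.352 in WT (0.208 to 0.576), intervals that cover counting error alone. In the fit over libraries the fall passed the test in WT (adjusted p = 0.00895) and missed it in mimetic (adjusted p = 0.444) and deficient (adjusted p = 0.19).

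The enzymes of the pentose phosphate pathway supply the NADPH that glutathione and thioredoxin reductases use. G6pdx (chromosome X, 74409483 to 74429194), glucose-6-phosphate dehydrogenase and the third promoter shown above, had 92.7, 94.9 and 98.8 CPM in mimetic, 101.2, 102.6 and 109.1 in deficient, 156.0, 159.6 and 154.8 in WT, and 144.0, 148.9 and 150.7 in vector. It fell 1.55-fold in mimetic (adjusted p = 1.46e-10) and 1.42-fold in deficient (adjusted p = 4.68e-09). In WT the log2 fold change of 0.08 missed the test (adjusted p = 0.0916). G6pdx thus splits the lines as Txnip does, into both mutants on one side and WT with vector on the other, with the opposite sign. Exons of G6pdx overlap Ikbkg on the opposite strand. Pgd, the next NADPH-forming enzyme of the pathway, stayed within 181.4 to 232.1 CPM in all libraries. It passed the test against vector only in deficient (1.10-fold lower, adjusted p = 0.0252), a call lost without deficient replicate 3 or vector replicate 3 (adjusted p up to 0.191).

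Glutathione S-transferases attach glutathione to electrophiles, and of 12 tested, 4 were called higher and 3 lower in mimetic (33.3% and 25.0%), 5 and 3 in deficient (41.7% and 25.0%), and 5 and 3 in WT (41.7% and 25.0%), with 28.6% and 30.9%, 28.4% and 29.8%, and 31.0% and 33.6% over all tested genes. Gsta4 (chromosome 9, 78182774 to 78209349), which conjugates 4-hydroxynonenal, an aldehyde of lipid peroxidation, had 44.7, 46.1 and 40.7 CPM in mimetic, 33.5, 34.2 and 30.3 in deficient, 21.0, 22.2 and 23.2 in WT, and 68.7, 66.4 and 72.6 in vector. The 4 lines did not overlap, and Gsta4 fell 1.58-fold in mimetic, 2.12-fold in deficient and 3.13-fold in WT (adjusted p = 3.48e-08, 2.44e-11 and 2.49e-14). Gstm1, the most abundant mu-class member here, had 106.9, 114.2 and 109.9 CPM in mimetic, 63.0, 68.1 and 67.2 in deficient, 104.0, 106.4 and 105.7 in WT, and 137.1, 125.3 and 147.0 in vector. Its fall was 2.06-fold in deficient (adjusted p = 1.52e-12) and smaller in mimetic (1.24-fold) and WT (1.30-fold), and 23% of its 3' end sequences occur in another gene.

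Gstm5 rose in each line, to 22.6 ± 2.44 CPM in mimetic, 22.9 ± 2.59 in deficient and 26.7 ± 2.23 in WT, against 14.6 ± 0.901 in vector (1.55, 1.57 and 1.83-fold, adjusted p = 1.33e-05, 9.53e-06 and 1.25e-07). Gstp1, the pi-class enzyme that many tumours express strongly, rose in WT (152.6 ± 2.74 CPM against 109.5 ± 7.77 in vector, 1.39-fold), but 76.7% of its 3' end sequences are shared with other genes. Gstk1, Gstm7, Gstt1 and Gstt3 stayed under 3 CPM in every library, where few counts decide a fold change, and were picked out after their values were seen. Gstk1, for example, had 65 counts over the mimetic libraries, 54 in deficient and 56 in WT, against 13 in vector, ratios of 6.46 (exact 95% interval 3.53 to 12.8), 4.45 (2.4 to 8.89) and 4.83 (2.61 to 9.63). It passed the count filter only through the Zeb1 lines, so these ratios are no separate support for a rise.

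Aldehyde dehydrogenases, which oxidise aldehydes to acids, mostly fell: of 15 tested members, 4 were called higher and 9 lower in mimetic, 5 and 9 in deficient, and 2 and 11 in WT, with median log2 fold changes of -0.35, -0.31 and -0.30. The shares lower were 60.0%, 60.0% and 73.3%, against 30.9%, 29.8% and 33.6% of all tested genes. The shares higher were 26.7%, 33.3% and 13.3%, against 28.6%, 28.4% and 31.0%. Aldh1a3 (chromosome 7, 66390890 to 66427517), which makes retinoic acid and is used as a marker of stem-like tumour cells, had 10.6, 10.9 and 9.1 CPM in mimetic, 7.93, 6.77 and 8.92 in deficient, 2.39, 3.2 and 2.6 in WT, and 17.4, 17.4 and 17.8 in vector. The lines did not overlap and the fall was deepest in WT, at 6.36-fold (log2 fold change -2.67, SE 0.13, adjusted p = 3.3e-13), against 2.23-fold in deficient (adjusted p = 3.46e-08) and 1.72-fold in mimetic (adjusted p = 5.58e-06). Gsta4 had the same order of the lines.

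Other aldehyde dehydrogenases fell as well. Aldh1a1 averaged 11.6 ± 0.773 CPM in mimetic, 8.77 ± 0.290 in deficient and 9.64 ± 0.767 in WT, against 14.7 ± 1.11 in vector (1.27, 1.68 and 1.53-fold lower). Of its 3' end sequences 14.7% are shared with Aldh1a7, so the falls of these genes are not cleanly separate. Aldh1a7, a rodent relative of Aldh1a1 that lies under 10 CPM and was picked out after its values were seen, had 2.03, 1.61 and 2.55 CPM in mimetic, 1.87, 1.8 and 2.63 in deficient and 2.29, 1.67 and 1.85 in WT, against 8.2, 8.64 and 8.03 in vector. Its falls were of nearly 1 size, 4.0, 3.95 and 4.29-fold (adjusted p = 1.23e-08, 1.1e-08 and 3.88e-09). Aldh3a1, which oxidises aromatic and lipid-derived aldehydes, had 115.8, 112.6 and 118.2 CPM in mimetic, 73.1, 65.3 and 69.7 in deficient and 85.4, 81.7 and 93.1 in WT, against 141.7, 144.6 and 153.4 in vector. It fell 1.27-fold in mimetic, 2.11-fold in deficient and 1.69-fold in WT (adjusted p = 1.3e-05, 1.02e-12 and 1.35e-10), so the mimetic line kept the level nearest to vector.

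Aldh2, the mitochondrial acetaldehyde dehydrogenase and, at 323.2 to 443.4 CPM, an abundant member, changed little. It fell 1.18-fold in deficient and 1.24-fold in WT, and its 1.08-fold lower level in mimetic missed the test (adjusted p = 0.0825). The fatty aldehyde dehydrogenase Aldh3a2 fell in each line and furthest in mimetic (85.3 ± 3.51 CPM against 126.1 ± 3.23 in vector, 1.48-fold, adjusted p = 1.23e-09). Aldh16a1 fell 1.32, 1.55 and 1.35-fold in mimetic, deficient and WT. Aldh3b1 and Aldh9a1 fell in each line too, by 1.30 and 1.29-fold in mimetic, 1.48 and 1.40-fold in deficient and 1.23 and 1.12-fold in WT.

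A few aldehyde dehydrogenases of mitochondrial metabolism rose. Aldh1l2 (chromosome 10, 83487450 to 83534140), the mitochondrial enzyme that oxidises 10-formyltetrahydrofolate in folate metabolism, had 70.4, 64.0 and 64.6 CPM in mimetic, 73.8, 73.6 and 78.0 in deficient, 23.5, 22.7 and 21.9 in WT, and 31.1, 34.6 and 27.3 in vector. It rose 2.14-fold in mimetic and 2.43-fold in deficient (adjusted p = 5.47e-11 and 5.52e-12), but fell 1.36-fold in WT (adjusted p = 2.99e-05), and its exons overlap D10Wsu102e on the opposite strand. Aldh7a1, an enzyme of lysine breakdown, also rose in both mutant lines, to 41.6 ± 1.70 CPM in mimetic and 44.9 ± 1.11 in deficient, against 29.4 ± 2.66 in vector (1.41 and 1.53-fold), while WT stood at 30.1 ± 0.337 CPM. Aldh6a1, an enzyme of valine breakdown, rose 1.41-fold in mimetic, 1.28-fold in deficient and 1.42-fold in WT.

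Aldh5a1 (chromosome 13, 24907579 to 24937661), succinic semialdehyde dehydrogenase of the GABA pathway, showed the largest change of the 74 genes against vector and was picked out after its values were seen, since it stays under 10 CPM. Its counts were 93, 113 and 156 in mimetic, 116, 121 and 150 in deficient and 131, 165 and 121 in WT, against 1, 3 and 1 in vector. In CPM these are 3.71 to 5.53 in mimetic, 3.5 to 4.81 in deficient and 4.31 to 4.67 in WT, against 0.0264 to 0.0922 in vector, so the 3 Zeb1 lines reached much the same level. The pooled ratio to vector was 93.5 in mimetic (exact 95% interval 39.7 to 290), 82.9 in deficient (35.2 to 257) and 93.5 in WT (39.7 to 289), for counting error alone. The fitted test gave adjusted p-values of 4.75e-12, 1.04e-11 and 3e-12. Aldh5a1 passed the count filter only through the Zeb1 lines, where it is high, and every listed gene has at least 1 count in each library. The p-values and ratios thus describe a gene admitted by its high lines and are no separate support for the rise. Its promoter, the last shown above, holds an E-box of the kind ZEB1 binds, a match of letters at position 50 of the window and no measure of binding. The same letters occurred in 19.4% of the members with a window and in 20.9% of the tested genes with one. Exons of Aldh5a1 overlap 4932702P03Rik and 9330162012Rik on the opposite strand.

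**Figure D3:**
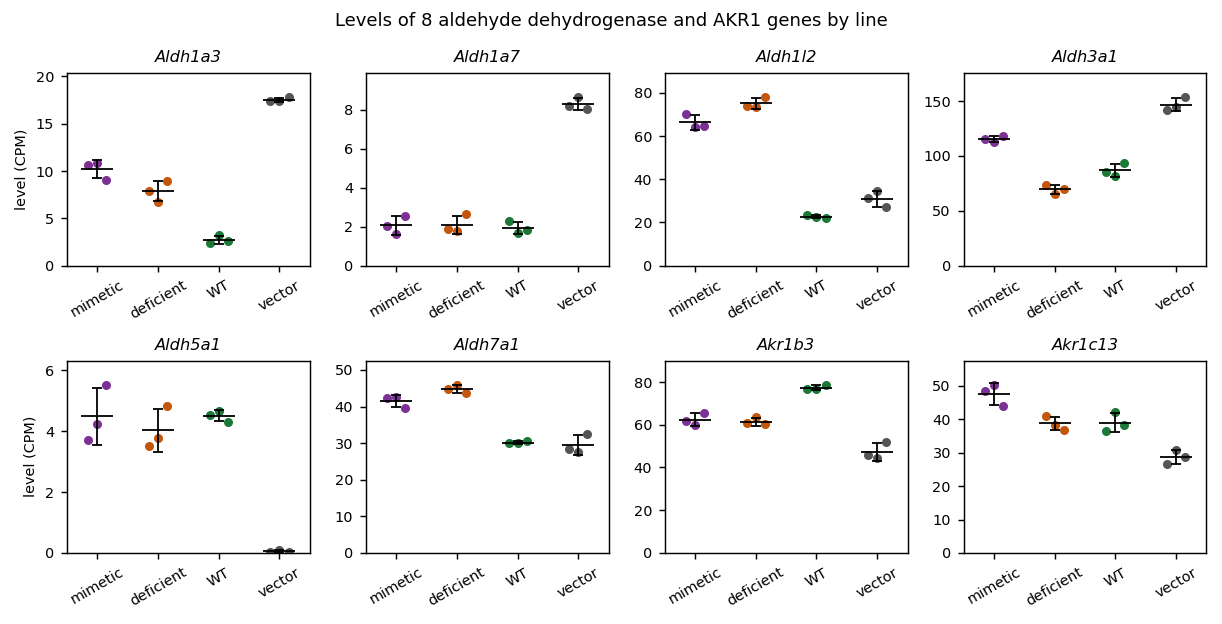
Levels in CPM (vertical axes, from 0) of 6 aldehyde dehydrogenases and 2 aldo-keto reductases in the mimetic, deficient, WT and vector lines. Points are the 3 libraries of a line, the long bar is their mean and the short bars are the SD. Aldh1a3 is lowest in WT, Aldh1l2 and Aldh7a1 are high in both mutant lines, and Aldh5a1 is near 0 in vector and between 3.5 and 5.53 CPM in the other lines.

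Aldo-keto reductases reduce aldehydes to alcohols with NADPH. Of 8 members tested, 4 were called higher and none (0) lower in mimetic, 2 and 1 in deficient, and 3 and 0 in WT. Over all tested genes the shares were 28.6% and 30.9%, 28.4% and 29.8%, and 31.0% and 33.6%. The family's shares higher in deficient and WT, 25.0% and 37.5%, were thus near those of all tested genes. Akr1b3, the mouse aldose reductase, rose in each line, with 61.6, 60.1 and 65.6 CPM in mimetic, 60.6, 63.5 and 60.2 in deficient and 76.5, 76.9 and 78.8 in WT, against 45.6, 44.2 and 52.1 in vector (1.32, 1.30 and 1.64-fold, adjusted p = 1.07e-05, 2.17e-05 and 2.3e-09), though 50% of its 3' end sequences occur in another gene. Akr1c13 rose most in mimetic, to 47.6 ± 3.24 CPM, with 38.8 ± 2.07 in deficient and 39 ± 2.83 in WT, against 28.7 ± 1.98 in vector (1.66, 1.35 and 1.36-fold). Akr1b10 passed the test only in WT (13.4 ± 0.784 CPM against 8.71 ± 0.214 in vector, 1.54-fold, adjusted p = 1.35e-05), and stood at 8.94 ± 0.318 CPM in mimetic and 9.85 ± 1.03 in deficient. The most abundant member, the aldehyde reductase Akr1a1, lay between 291.9 and 338.6 CPM in all libraries and passed the test in none of the 3 lines against vector.

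The forms of Zeb1 were then set against each other, which leaves the vector libraries out of the difference. Mimetic and deficient gave the fewest calls of the 3 pairs. Of the 74 genes, 16 were called higher in mimetic and 5 lower (21.6% and 6.76%), where 12.6% and 14.9% of all tested genes were, and 4 changed at least 1.5-fold (5.41%, against 5.93% of all tested genes). The median log2 fold change was 0.09, with 0.0 over all tested genes. Aldh3a1 and Gstm1 were both 1.67-fold higher in mimetic than in deficient (adjusted p = 2.44e-09 and 2.21e-09), at 115.5 ± 2.85 and 110.3 ± 3.65 CPM in mimetic, against 69.4 ± 3.91 and 66.1 ± 2.73 in deficient. Gclc was 1.39-fold higher (adjusted p = 1.12e-07), Gsta4 1.34-fold (adjusted p = 7.9e-05), Prdx4 1.31-fold (adjusted p = 7.98e-05), Gpx8 1.24-fold (adjusted p = 0.00127) and Gpx1 1.18-fold (adjusted p = 0.000352). Aldh18a1 was 1.38-fold lower in mimetic (358.4 ± 15.5 CPM against 493.0 ± 7.48 in deficient, adjusted p = 3.58e-08) and Prdx5 1.22-fold lower (adjusted p = 0.00018). Also lower were Aldh3a2 (1.19-fold, adjusted p = 0.000307) and, with few counts, Gstt3 (1.11 CPM against 2.53 in deficient, 2.25-fold, adjusted p = 0.00443). Txnip (log2 fold change -0.06, adjusted p = 0.532) and Aldh1l2 (-0.18, adjusted p = 0.0606) missed the test. Aldh1a3 (1.29-fold higher in mimetic, adjusted p = 0.0262) and G6pdx (1.09-fold lower, adjusted p = 0.0386) passed it. The Aldh1a3 call was lost without deficient or mimetic replicate 1 or 2 (adjusted p up to 0.132), and the G6pdx call without deficient replicate 2 or 3, mimetic replicate 1 or 2 or any 1 WT library (up to 0.148).

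Deficient against WT gave the most calls of the 3 pairs, and most of them were lower in deficient. Of the 74 genes, 11 were called higher in deficient and 34 lower (14.9% and 45.9%), where 27.5% and 26.3% of all tested genes were. The median log2 fold change was -0.13, with 0.01 over all tested genes, and 11 genes changed at least 1.5-fold (14.9%, against 15.7% of all tested genes). The lower genes included Gclc (109.3 ± 6.81 CPM in deficient against 204.7 ± 5.26 in WT, 1.87-fold lower, adjusted p = 1.55e-12), Prdx4 (42.4 ± 3.01 against 73.2 ± 2.43, 1.73-fold, adjusted p = 1.15e-09) and Gpx8 (56.8 ± 6.59 against 92.2 ± 1.82, 1.62-fold, adjusted p = 1.97e-08). Of the families, the peroxiredoxins with Srxn1 had 5 of 7 lower and 1 higher, the thioredoxins with their reductases and Txnip 5 of 6 lower and 1 higher, and the glutathione peroxidases 3 of 4 lower and 1 higher. Among genes with at least 10 CPM in a line, those furthest above WT in deficient were Aldh1l2 (75.1 ± 2.50 CPM against 22.7 ± 0.808 in WT, 3.31-fold, adjusted p = 1.05e-13), Aldh1a3 (7.87 ± 1.08 against 2.73 ± 0.418, 2.86-fold, adjusted p = 1.28e-08) and Txnip (50.1 ± 1.66 against 19.3 ± 1.08, 2.59-fold, adjusted p = 6.66e-13). Deficient had the highest Zeb1 RNA of the lines, and what part that level has in these differences was not tested.

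Mimetic differed from WT in both directions. Of the 74 genes, 16 genes were called higher in mimetic and 22 lower (21.6% and 29.7%), where 23.1% and 21.8% of all tested genes were, and 7 changed at least 1.5-fold (9.46%, against 10.6% of all tested genes). The median log2 fold change was -0.03, with 0.01 over all tested genes. Aldh1a3 was 3.70-fold higher in mimetic (adjusted p = 7.95e-10), Aldh1l2 2.92-fold (adjusted p = 1.6e-12), Txnip 2.49-fold (adjusted p = 3.51e-12) and Gsta4 1.98-fold (adjusted p = 6.13e-10). Nqo1, with few counts, was 3.60-fold higher (0.867 ± 0.152 CPM in mimetic against 0.235 ± 0.0529 in WT, adjusted p = 0.00299). Lower in mimetic were G6pdx (1.64-fold, adjusted p = 6.57e-11), Akr1b10 (1.51-fold, adjusted p = 7.93e-05), Gclc (1.34-fold, adjusted p = 2.42e-07), Prdx4 (1.32-fold, adjusted p = 1.93e-05) and Txn1 (1.31-fold, adjusted p = 6.66e-06). Of the other glutathione synthesis and recycling genes, Gclm was 1.20-fold higher in mimetic (adjusted p = 0.000233) and Gss 1.12-fold higher (adjusted p = 0.0245, lost without mimetic replicate 2 or WT replicate 1 or 2, up to 0.122), while Gsr missed the test (adjusted p = 0.0779).

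**Figure D4:**
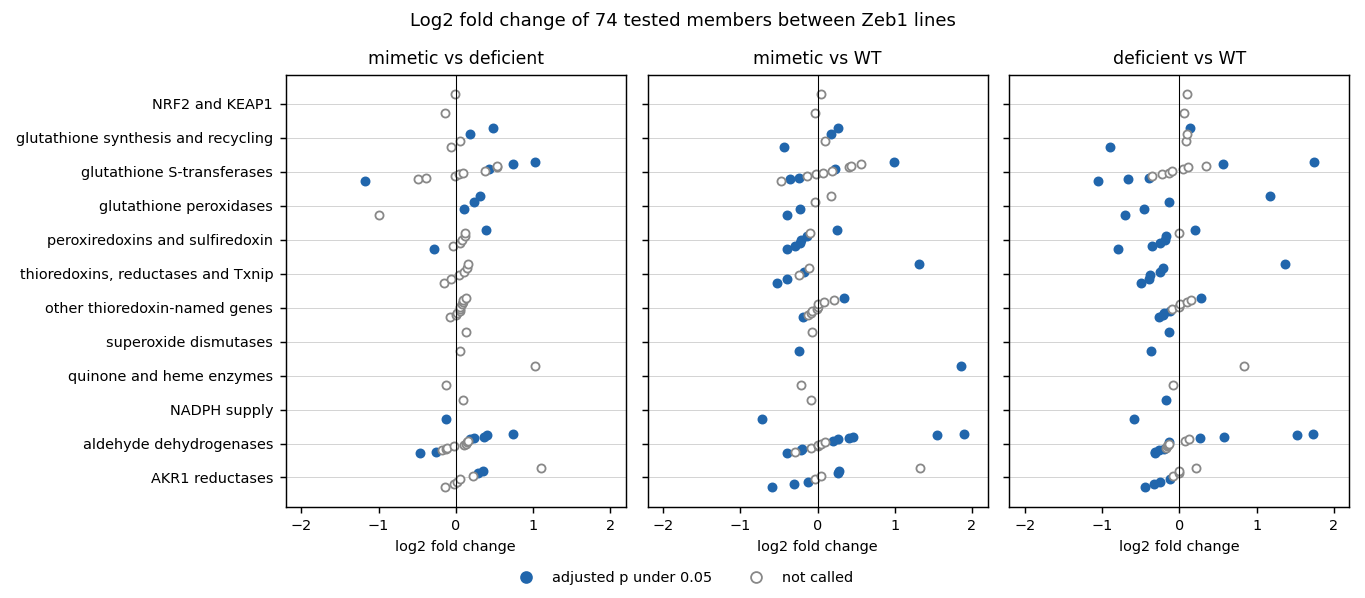
Log2 fold changes of the 74 tested genes for mimetic against deficient, mimetic against WT and deficient against WT, 1 row per family and 1 point per gene. Filled points passed an adjusted p under 0.05 in edgeR's quasi-likelihood test and open points did not. In the deficient against WT panel most filled points of the peroxidase, peroxiredoxin and thioredoxin families lie left of 0, with Txnip and Aldh1l2 far to the right.

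A further 83 genes of the same pathways (NRF2 partners, cystine import and glutathione turnover, NADPH supply, iron and heme handling, and other conjugation and reduction enzymes) were read beside the group, and 79 of them were tested. In mimetic 20 were called higher and 33 lower (25.3% and 41.8%, against 28.6% and 30.9% of all tested genes), in deficient 22 and 34 (27.8% and 43.0%, against 28.4% and 29.8%), and in WT 23 and 39 (29.1% and 49.4%, against 31.0% and 33.6%). Of the 31 other conjugation and reduction enzymes, 6 were higher and 12 lower in mimetic (19.4% and 38.7%), 8 and 16 in deficient (25.8% and 51.6%), and 6 and 19 in WT (19.4% and 61.3%). The epoxide hydrolase Ephx2 fell to 38.7 ± 1.44 CPM in mimetic, 49.6 ± 3.47 in deficient and 33.9 ± 1.75 in WT, against 88.1 ± 1.66 in vector (2.28, 1.77 and 2.60-fold). Ptgr1, a reductase of prostaglandins and lipid aldehydes, rose 2.70, 2.55 and 2.88-fold in the same order. Idh1, a cytosolic source of NADPH, fell to 136.1 ± 0.371, 142.2 ± 5.97 and 133.5 ± 3.01 CPM, against 258.8 ± 6.51 in vector.

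The 18 tested genes of cystine import and glutathione turnover went both ways in WT against vector, with 6 higher and 7 lower (33.3% and 38.9%, near the shares of all tested genes) and a median log2 fold change of 0.07. The values of 2 that feed cysteine into glutathione follow. Slc7a11, the cystine importer, had 220.2, 204.2 and 202.4 CPM in mimetic, 253.1, 253.2 and 245.9 in deficient, 120.4, 119.2 and 112.1 in WT, and 301.3, 313.3 and 260.3 in vector. The lines did not overlap, and the fall against vector was 1.40-fold in mimetic, 1.16-fold in deficient and 2.49-fold in WT (adjusted p = 2.91e-07, 0.00217 and 4.48e-14). Cth, which makes cysteine from cystathionine, stood at 13.1 ± 0.401 CPM in mimetic, 13.9 ± 0.760 in deficient and 3.77 ± 0.280 in WT, against 10.6 ± 0.339 in vector (adjusted p = 0.00666, 0.000847 and 1.3e-10). In the WT line Gclc was at its highest level and Slc7a11 and Cth at their lowest. Chac1, which degrades glutathione, rose in each line and most in deficient (76.5 ± 2.84 CPM against 37.2 ± 1.15 in vector, 2.06-fold, adjusted p = 1.37e-11). Osgin1 fell 1.95, 1.64 and 2.49-fold in mimetic, deficient and WT, and Pir 1.88, 3.08 and 2.01-fold. Between mimetic and deficient, the alcohol dehydrogenase Adh7 (1.82-fold), the ferritin light chain Ftl1 (1.5-fold), the carbonyl reductase Cbr1 (1.42-fold) and the epoxide hydrolase Ephx1 (1.38-fold) were higher in mimetic. Between deficient and WT, Cyb5r1, a cytochrome b5 reductase, and the exporter Abcc4 were higher in deficient (2.17-fold and 1.76-fold).

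Promoter windows were found for 62 of the 76 genes. The antioxidant response element core TGACNNNGC occurred on either strand in 14 of the 62 (22.6%), as it did in 16.9% of the 9241 tested genes with a window and 14.0% of all 27025. The 14 genes are Aldh9a1, G6pdx, Gclm, Gstm5, Gstm7, Nfe2l2, Pgd, Prdx1, Sod1, Srxn1, Txndc11, Txndc2, Txndc5 and Txnrd1. They went both ways: against vector in WT, for example, Srxn1, Txnrd1 and Gstm5 rose while Prdx1, Sod1 and Aldh9a1 fell. The E-box CACCTG occurred on either strand in 12 of the 62 (19.4%), as in 20.9% of tested and 22.6% of all genes, and shared bases with an antioxidant response element core only in the window of Nfe2l2. A match describes these letters in these 300 bases and does not show that a factor binds there.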

How the data were processed

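Raw counts per gene of 12 libraries (4 lines, 3 replicates each) were used as deposited, 1 column a library. The libraries were made with a QuantSeq 3' forward kit, per the labels' protocols, and the submitters' processing notes name STAR and the mm10 build. Versions, the counting tool, its annotation and its strand setting are not given in the sources used. Each gene listed in the deposited counts had at least 1 count in every library, so genes with a 0 are not analysed here, and no column belonged to another series (0).

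The test was edgeR 4.0.16 (R 4.3.3): filterByExpr (12027 of 12208 genes kept, 181 removed), TMM factors, a quasi-likelihood fit over all 12 libraries with a coefficient per line, and Benjamini-Hochberg adjustment over all tested genes, two-sided at 0.05. Standard errors are the absolute log2 fold change over the square root of F. Pooled ratios of low counts have exact binomial 95% intervals. The fit was tested on simulated data. Alternatives were DESeq2 1.42.0, limma 3.58.1 (voom), no filter, RLE factors, scaling by library size, at least 5 CPM in 3 libraries, a replicate block, only the 2 lines compared, a minimum change of 1.5-fold, and leaving out each library in turn. Positions and overlaps are from GENCODE M21 (GRCm38, the assembly of mm10), in which all 76 symbols matched. A member was called uncertain where over 10% of the sequences of 50 bases in the last 300 bases of its transcripts occur in another gene (10 members), and the exons of 22 members overlap another gene. Not every such overlap is named with the values above. Replicates differed by a mean chi-square per gene of 2.96 to 23.6, so none was counted as a copy.

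Members, lists, tests and the naming rule were chosen with earlier results of these data known. The rule names a core of 20 genes, other members with at least 10 CPM in a line and a called change of at least 1.5-fold (23 genes), and the member of each family with the smallest p over the 4 lines, 38 in all; it also names up to 4 further pathway genes per comparison. Other members named with values were chosen after their values were seen.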

Additional observations from a re-analysis of the deposited data

Results flagged for a closer look

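Among the genes named by the rule above, 3 members and 2 further pathway genes, Cth and Cyb5r1, moved in opposite directions against vector in different lines, with a difference between the lines that itself passed the test (edgeR's quasi-likelihood test). Gclc differed by a log2 fold change of -0.90 in deficient against WT (adjusted p = 1.55e-12, with -0.20 and 0.70 against vector) and by 0.48 in mimetic against deficient (adjusted p = 1.12e-07, with 0.28 and -0.20 against vector). Prdx4 differed by -0.79 in deficient against WT (adjusted p = 1.15e-09, with -0.19 and 0.59 against vector) and by 0.39 in mimetic against deficient (adjusted p = 7.98e-05, with 0.19 and -0.19 against vector). Aldh1l2 differed by 1.73 in deficient against WT (adjusted p = 1.05e-13, with 1.28 and -0.45 against vector) and by 1.55 in mimetic against WT (adjusted p = 1.6e-12, with 1.10 and -0.45 against vector). Cth differed by 1.89 in deficient against WT (adjusted p = 5.01e-12, with 0.40 and -1.49 against vector) and by 1.80 in mimetic against WT (adjusted p = 3.21e-11, with 0.31 and -1.49 against vector). Cyb5r1 differed by 1.12 in deficient against WT (adjusted p = 3.75e-14, with 0.66 and -0.46 against vector) and by 0.73 in mimetic against WT (adjusted p = 7.52e-11, with 0.27 and -0.46 against vector). In each of these 10 differences all 3 libraries of one line lay on one side of all 3 libraries of the other. The differences were picked from these same data by their signs and adjusted p, so that separation is no further support. The share of all tested genes that meet the same rule was not computed. Members outside the naming rule are left out of these counts. Of those, Txndc9 was called lower in WT (-0.22) and higher in mimetic (0.12) against vector, and differed by 0.34 between them (adjusted p = 7.33e-06). Aldh18a1 was called higher in deficient (0.10) and lower in mimetic (-0.36) and WT (-0.16). It differed by -0.46 in mimetic against deficient (adjusted p = 3.58e-08) and by 0.26 in deficient against WT (adjusted p = 1.89e-05).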

How the results depend on the processing

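Requiring a change of at least 1.5-fold beside the adjusted p moved the counts of called genes by more than 1.5 times: to 16 in mimetic against vector (11 higher, 5 lower), 20 in deficient against vector (11 higher, 9 lower), 21 in WT against vector (15 higher, 6 lower), 4 in mimetic against deficient (3 higher, 1 lower), 7 in mimetic against WT (5 higher, 2 lower) and 11 in deficient against WT (5 higher, 6 lower). No other alternative moved such a count by that much. Scaling by library size alone turned the balance in deficient against vector, to 26 higher and 22 lower, and gave 37 higher and 19 lower in mimetic against vector, 29 and 23 in WT against vector, 22 and 4 in mimetic against deficient, 18 and 19 in mimetic against WT, and 12 and 31 in deficient against WT. Over single genes and alternatives, 4407 values kept their side of the threshold, 98 lost a call and 48 gained one. Of the values called in the main fit or in the alternative, 0 changed sign. The sign of values called in neither was not compared. Other calls were lost when 1 library was left out, beside those given with their values above. In mimetic against deficient these were Gclm (without mimetic replicate 2, adjusted p = 0.0578), Gpx4 (without deficient replicate 1 or 3 or any 1 mimetic library, up to 0.143) and Aldh16a1 (deficient 1 or mimetic 3, up to 0.0643). In mimetic against WT they were Gstm5 (mimetic 1 or 2, WT 2 or vector 1, up to 0.228), Aldh1a1 (mimetic 1 or 2 or any 1 WT library, up to 0.178) and Srxn1 (mimetic 2 or 3, WT 2 or 3, up to 0.151). In deficient against WT they were Prdx1 (deficient 3, 0.0888), Aldh16a1 (deficient 1, 0.0847) and Txndc15 (deficient 3 or WT 3, up to 0.141).

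The replicate numbers do not pair the libraries: over 18 pairs with the same number the correlations of their deviations ran from -0.08 to 0.13, with 1 over 0.1. With the replicate number as a block, 49 genes were called in mimetic against vector, 48 in deficient against vector, 52 in WT against vector, 22 in mimetic against deficient, 39 in mimetic against WT and 46 in deficient against WT. Depth limits the 15 tested members under 10 CPM in every line, where a few counts decide a fold change, and genes with 0 counts in a library are outside the data.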
